A study of Mus musculus with 27 samples.

Results

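Chromatin accessibility in mouse cardiac fibroblasts given Gata4 alone (G) was compared with that in fibroblasts given Tbx5 alone (T). The groups were set by their labels. The comparison set 3 G libraries against 3 T libraries, 6 of the 24 ATAC-seq libraries with counts, across every region in the count table. All 24 libraries, in 8 groups, entered the filter and the estimate of spread. The cells were a neonatal line of strain Cd-1 with genotype alpha-MHC-GFP that was immortalised with large T antigen. They were infected with retrovirus and taken unsorted on day 2, from 50000 cells per aliquot. G cells received Gata4, T cells Tbx5, GM cells Gata4 and Mef2c, and MT cells Mef2c and Tbx5. GT cells received Gata4 and Tbx5, GMT cells all 3 factors, and M cells Mef2c. Each of these groups was cultured with sb431542, an inhibitor of TGF-beta signalling, and xav939, an inhibitor of Wnt signalling. The control received dsRed, a red fluorescent protein, without the inhibitors. G and T shared the inhibitors, the cell line and the day, so the factor was the labelled difference between them. The line is immortalised and the share of infected cells is not given, so fewer responding cells and a weaker response per cell cannot be told apart.

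Gata4 is a zinc-finger transcription factor that binds GATA motifs and can engage sites in closed chromatin. Tbx5 is a T-box factor that binds a different motif, and loss of one copy causes Holt-Oram syndrome, with heart and limb defects. Both proteins act in heart development, can bind each other, and are used with the MADS-box factor Mef2c to reprogramme fibroblasts toward a cardiomyocyte-like state. ATAC-seq reads accessibility as the number of transposase insertions recovered from a region. Levels are given in CPM, the counts of a region per 1000000 counts of its library after TMM scaling, and differences as log2 fold changes of G over T, so a positive value is higher in G. Regions are named by mm9 coordinates, and gene names and sequences were not assigned because no annotation or genome of that build was used here. The Gata4 and Tbx5 loci and fibroblast markers were therefore not checked.

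Total counts ran from 386147 to 1544120 in G and from 382527 to 676886 in T. Spearman correlations across the 20494 regions tested were 0.796 to 0.936 within G and 0.833 to 0.883 within T, against 0.496 to 0.697 between a G and a T library. G replicate 2 had the lowest total of its group and correlated at 0.818 to 0.827 with the control libraries, above its 0.796 and 0.809 with the other G libraries. T replicate 3 correlated at 0.726 to 0.746 with the control, below its 0.833 and 0.855 with the other T libraries, which had 0.546 to 0.622 with the control. The library labelled GT replicate 1 correlated at 0.824 to 0.941 with G and at 0.722 and 0.73 with the other GT libraries, so results in GT are given with and without it. Replicates are called biological in the labels, with no word on what separated them. The p-values therefore reflect a spread among replicate libraries that may be technical. It was estimated from all 8 groups together, not from G and T alone.

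The comparison asked where fibroblasts given Gata4 and fibroblasts given Tbx5 differ in accessibility. In G, 3415 regions were higher than in T (16.7% of those tested) and 3424 were lower (16.7%), together 33.4%, by edgeR's quasi-likelihood test at an adjusted p below 0.05. They are called G-higher and T-higher regions here. The split was less even with total counts alone in place of TMM scaling, at 3799 higher and 2995 lower. The median log2 fold change was 2.05 in G-higher and -2.22 in T-higher regions, against 0.00430 over all regions tested. Differences beyond 4-fold were fitted at 1802 G-higher and 2025 T-higher regions, and beyond 8-fold at 468 and 789. Every G library was above every T library in 3027 G-higher regions (88.6%) and below in 3092 T-higher regions (90.3%). Over all regions tested these shares were 20.4% and 19.2%. The same libraries made the calls, so this separation is not independent of them.

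G-higher regions had a median of 42.6, 26.0 and 46.6 CPM in the 3 G libraries, against 8.79, 7.18 and 11.4 CPM in the 3 T libraries. T-higher regions had a median of 9.06, 13.0 and 7.06 CPM in G, against 64.5, 50.2 and 38.0 CPM in T. The groups did not overlap in either set, as the choice of regions fixes. In both sets the library nearest the other group was G replicate 2 among G libraries, and T replicate 3 among T libraries. Without these 2 libraries, a choice made after the data were examined, 3556 regions were higher and 3462 lower in G, with 6208 of the 6839 calls shared and none in the opposite direction. In the libraries with Mef2c, which are not part of the G versus T contrast but share its filter and its estimate of spread, G-higher regions stood at 25.6, 22.3 and 31.6 CPM in GM, against 10.2, 11.8 and 14.1 CPM in MT, and T-higher regions at 9.21, 12.4 and 9.48 CPM in GM, against 40.7, 40.4 and 30.6 CPM in MT.

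**Figure D1:**
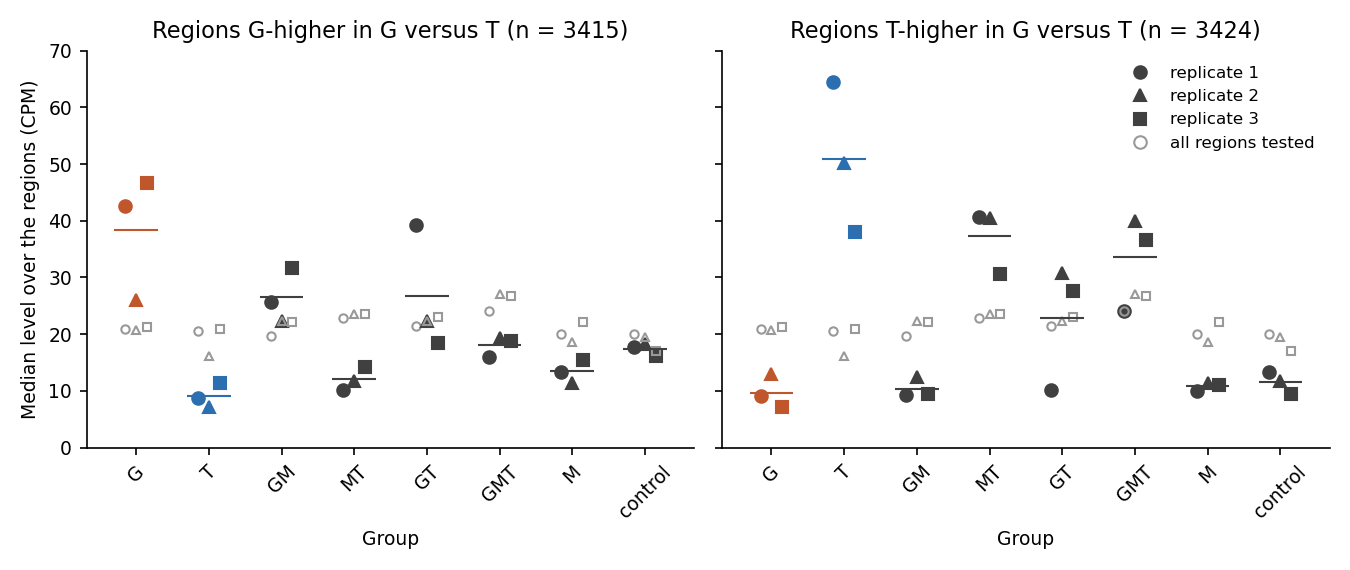
Median level in CPM (vertical axis) of the 3415 G-higher regions (left) and the 3424 T-higher regions (right) in each library of 8 groups; filled symbols are libraries, lines are group means, and open symbols are the medians over all regions tested. G and T libraries chose the regions; GM and MT libraries do not overlap in either panel, and the library labelled GT replicate 1 stands apart from the other GT libraries.

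In each direction, the 8 called regions of largest log2 fold change are described first. They were taken among those whose mean level over all 24 libraries reached the median of all tested and whose G and T libraries were fully apart. The first G-higher region was chr5:107876951-107877176, of 226 bp, with 217, 114 and 238 CPM in G, against 5.86, 1.79 and 7.60 CPM in T (log2 fold change 5.24 ± 0.59 (SE), adjusted p = 2.83e-07). Every G library there was above 100 CPM and every T library had 4 counts or fewer. It was called higher in G and lower in T than in the control, whose libraries had 31.2, 22.1 and 17.0 CPM. At chr3:105721047-105721252, G had 145, 120 and 177 CPM, against 0, 3.59 and 7.60 CPM in T (log2 fold change 5.11 ± 0.65, adjusted p = 1.15e-06). The control stood between them at 24.5, 32.6 and 26.5 CPM. At chr5:118594423-118594677, G had 151, 41.6 and 162 CPM, against 5.86, 3.59 and 7.60 CPM in T (log2 fold change 4.40 ± 0.57, adjusted p = 1.36e-06). G replicate 2 was the lowest G library at this region and at all 8.

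The fourth G-higher region, chr18:76456633-76457256, was the widest of the 8 at 624 bp, with 87.9, 18.2 and 102 CPM in G, against 0, 1.79 and 7.60 CPM in T. At chr4:119458919-119459319, G had 68.9, 39.0 and 84.8 CPM, against 0, 3.59 and 5.70 CPM in T. This region differed through T: the control had 42.3, 39.1 and 50.1 CPM, T was called lower than the control and G was not called different from it. The other 3 were chr7:141020197-141020605 (log2 fold change 4.13 ± 0.61), chr2:91005167-91005500 (4.10 ± 0.73) and chr4:55369676-55369972 (4.04 ± 0.72). Over the 8, G was called above the control in 7 and T below it in 4. No T library had more than 4 counts in any of them.

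The T-higher region with the largest difference was chr16:5431236-5431452, of 217 bp, with 0.906, 7.79 and 2.12 CPM in G, against 138, 147 and 77.9 CPM in T (log2 fold change -5.48 ± 0.82, adjusted p = 8.81e-06). G had 3 counts or fewer per library there, and the control had 8.91, 7.82 and 3.78 CPM, so both lay far below T. At chr3:8893449-8894002, G had 6.34, 2.60 and 1.41 CPM, against 211, 151 and 106 CPM in T (log2 fold change -5.41 ± 0.58, adjusted p = 1.87e-07). The region with the highest levels of the 8 was chr17:73371686-73372265, with 14.5, 20.8 and 8.48 CPM in G, against 528, 474 and 317 CPM in T (log2 fold change -5.05 ± 0.57, adjusted p = 3.07e-07). In the control it had 31.2, 14.3 and 13.2 CPM, which overlapped G and lay far below T.

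At chr6:5753140-5753569, G had 8.16, 26.0 and 2.83 CPM, against 372, 334 and 241 CPM in T. At chr3:63627976-63628276, G had 1.81, 10.4 and 2.12 CPM, against 205, 78.9 and 66.5 CPM in T. The last region was the 1 of the 8 where G was also called below the control, which had 31.2, 13.0 and 15.1 CPM. The other 3 were chr3:146950529-146950779 (log2 fold change -5.11 ± 0.57), chr6:94912490-94912998 (-4.99 ± 0.56) and chr13:15689321-15689720 (-4.97 ± 0.53). T was called above the control in all 8 T-higher regions. The lowest T library in any of them had 66.5 CPM and the highest G library 26.0 CPM.

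**Figure D2:**
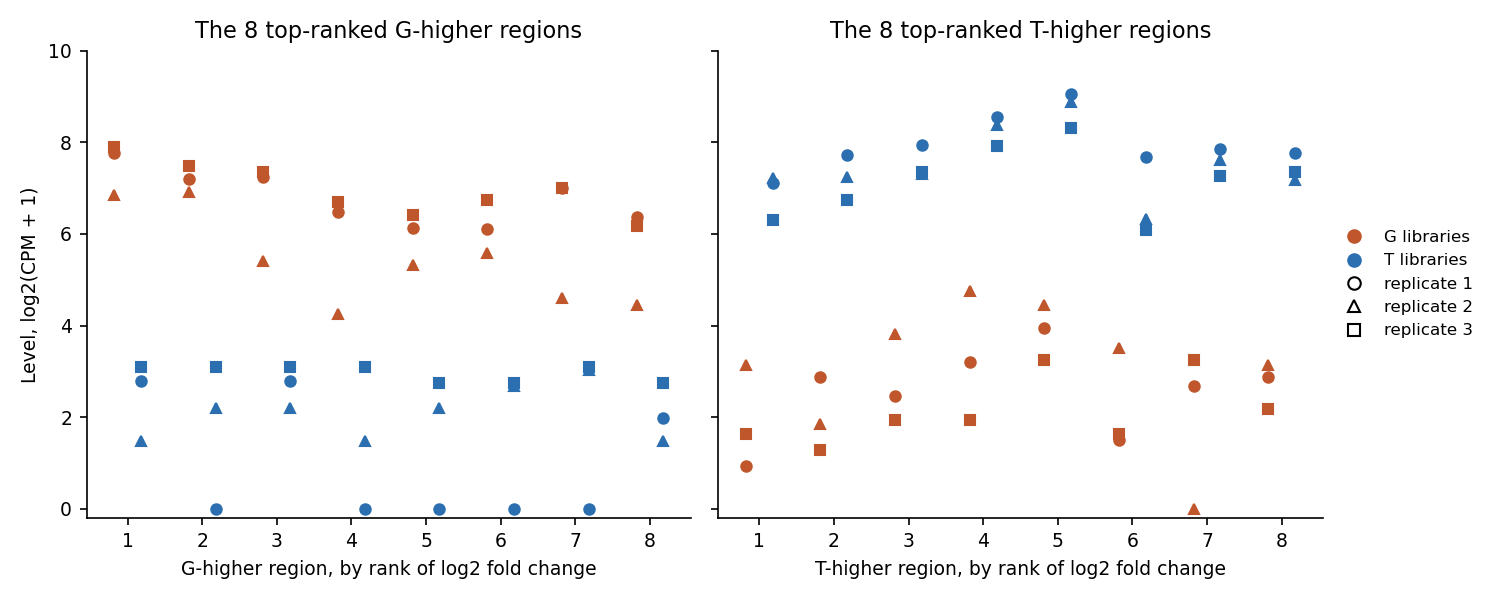
Level as log2(CPM + 1) (vertical axis) in each G and T library at the 8 top-ranked G-higher regions (left) and the 8 top-ranked T-higher regions (right), in order of the size of the log2 fold change (horizontal axis). The regions were chosen so that the groups do not overlap; G replicate 2 is the lowest G library in each of the 8 on the left, and 5 of those 8 had no count in T replicate 1.

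Ranked by p rather than size, the first 3 G-higher regions were the first 3 named above. The 3 T-higher regions with the smallest p were others. At chr2:174267895-174268415, of 521 bp, G had 68.9, 46.7 and 45.9 CPM, against 560, 538 and 292 CPM in T (log2 fold change -3.08 ± 0.30, adjusted p = 1.03e-07). The control had 53.5, 62.5 and 66.2 CPM, within the range of G, and T was called above it. At chr15:12679838-12680110, G had 6.34, 5.19 and 4.24 CPM, against 109, 158 and 110 CPM in T (log2 fold change -4.55 ± 0.46, adjusted p = 1.75e-07). At chr6:87116686-87117212, G had 4.53, 15.6 and 4.24 CPM, against 202, 275 and 141 CPM in T (log2 fold change -4.97 ± 0.51, adjusted p = 1.87e-07).

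The called regions with the highest levels had small differences. The highest in G was chr11:87256826-87257295, with 486, 208 and 955 CPM in G, against 384, 215 and 243 CPM in T (log2 fold change 1.00 ± 0.36, adjusted p = 0.0302). The groups overlapped there. The call was lost without G replicate 3 (log2 fold change 0.36, adjusted p = 0.51), without T replicate 2 (0.96, adjusted p = 0.0946) and without T replicate 3 (0.91, adjusted p = 0.0892). The next, chr3:68568712-68569244, had 503, 278 and 565 CPM in G, against 205, 142 and 160 CPM in T, with no overlap (log2 fold change 1.43 ± 0.28, adjusted p = 0.000213). The highest in T was chr3:30993433-30994124, with 613, 613 and 552 CPM in G, against 613, 1263 and 807 CPM in T (log2 fold change -0.60 ± 0.22, adjusted p = 0.0313). T replicate 1 had the same level as G replicates 1 and 2. The call was lost without T replicate 2 (log2 fold change -0.18, adjusted p = 0.626), without G replicate 1 (-0.62, adjusted p = 0.0606), without G replicate 3 (-0.54, adjusted p = 0.118) and with loess offsets (-0.18, adjusted p = 0.349). The next, chr15:5066256-5066716, had 429, 590 and 462 CPM in G, against 707, 866 and 697 CPM in T (log2 fold change -0.62 ± 0.19, adjusted p = 0.0114). Its groups did not overlap, but the call was lost without T replicate 2 (-0.43, adjusted p = 0.149) and with loess offsets (-0.30, adjusted p = 0.12). It was also lost without G replicate 1 (-0.53, adjusted p = 0.0664) and without G replicate 3 (-0.57, adjusted p = 0.06). A minimum fold of 1.5 removed the calls at chr11:87256826-87257295, chr3:30993433-30994124 and chr15:5066256-5066716. The T-higher calls among these were also lost without the filter and with only the compared groups, and that at chr3:30993433-30994124 with total counts alone.

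The highest region that was not called, chr15:44259359-44259640, had 818, 1278 and 827 CPM in G, against 885, 1017 and 1158 CPM in T. The groups overlapped, and the 95% interval of the log2 fold change ran from -0.50 to 0.35. At the next, chr15:3945592-3946236, G had 615, 919 and 680 CPM, against 835, 1299 and 946 CPM in T, with an interval from -0.88 to -0.09 (adjusted p = 0.0509). It was called without G replicate 2 (log2 fold change -0.67, adjusted p = 0.0119), without T replicate 1 (-0.61, adjusted p = 0.036), without T replicate 3 (-0.54, adjusted p = 0.0499) and by DESeq2 (-0.51, adjusted p = 0.047). Over all regions, the interval stayed within 2-fold in both directions for 2900 (14.2%), which had a median mean level of 131 CPM in G and T. Of the 13655 regions not called, 10759 had an interval that reached beyond 2-fold, so a difference of that size was not excluded there.

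The called regions were then placed against groups with neither Gata4 nor Tbx5. These comparisons share the G or T libraries with the choice of regions, so they describe where the difference lay and test nothing new. Against the control, over all regions tested, G was higher in 9.61% and lower in 6.07%, and T was higher in 14.5% and lower in 10.6%. Among G-higher regions, G was called above the control in 1446 (42.3%) and T below it in 972 (28.5%), with 50 in both. Among T-higher regions, T was called above the control in 2316 (67.6%) and G below it in 325 (9.49%), with 53 in both. T-higher regions thus lay mostly above the control in T, whereas 28.5% of G-higher regions were called below the control in T. The control lacked the inhibitors, so factor and inhibitor cannot be told apart in these shares.

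M cells had the inhibitors and served as a matched group. Against M, G was higher in 15.8% and lower in 14.9% of all regions tested, and T was higher in 16.1% and lower in 15.3%. Among G-higher regions, G was called above M in 2163 (63.3%) and T below M in 600 (17.6%), with 45 in both. Among T-higher regions, T was called above M in 2410 (70.4%) and G below M in 466 (13.6%), with 58 in both. M itself carried a factor: against the control it was higher in 9.67% and lower in 6.47% of all regions, and in G-higher regions it was called lower in 420 (12.3%) and higher in 126 (3.69%). The median log2 fold change of G-higher regions was 1.16 for G over the control and 1.62 for G over M, and that of T-higher regions 1.97 for T over the control and 2.05 for T over M.

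**Figure D3:**
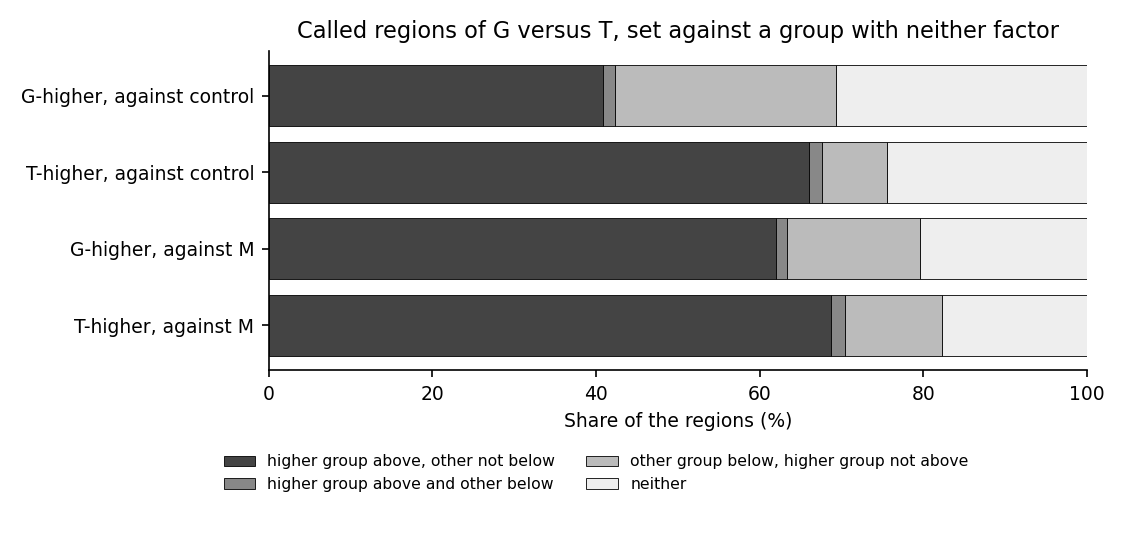
Share of the G-higher and T-higher regions (horizontal axis, %) by their calls against the control and against M; from dark to light, the factor group with the higher level was called above it alone, above it while the other factor group was below it, not above it while the other was below it, or neither. T-higher regions were above the control in T in 67.6%, and G-higher regions above the control in G in 42.3%.

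The same exchange of factors was measured a second time in cells that also carried Mef2c, by GM over MT, a contrast of other libraries. All 8 groups were fitted together, so the filter and the estimate of spread were shared, and the G versus T calls numbered 6649 to 6869 when a GM or MT library was left out. Over all regions tested, GM was higher than MT in 1118 (5.46%) and lower in 2452 (12%). Among G-higher regions, 893 (26.1%) were called higher in GM and 0 lower. Among T-higher regions, 1923 (56.2%) were called lower in GM than in MT and 0 higher. Set against the second lists, these were 79.9% of the regions higher in GM and 78.4% of those higher in MT. The sign was the same in both comparisons for 6597 of the 6839 called regions (96.5%), against 76.8% of all regions tested. Pearson's r of the log2 fold changes was 0.820 across the 20494 regions, which share their libraries within each comparison.

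The median difference was larger in G over T than in GM over MT in each list, by an amount that varied with the list that was read. G-higher regions had a median log2 fold change of 2.05 in G over T, where they were chosen, and of 1.04 in GM over MT. T-higher regions had -2.22 and -1.63. Read the other way, regions chosen as higher in GM had a median of 1.82 in GM over MT and of 2.20 in G over T, and regions chosen as higher in MT had -2.12 and -2.25. A test of the difference itself, GM over MT against G over T, called 0 regions by edgeR and 0 by DESeq2, with 1441 (7.03%) at an unadjusted p under 0.05 in edgeR. The smallest adjusted p was 0.678, so no region was shown to respond differently with and without Mef2c. Without G replicate 2, T replicate 3 and the library labelled GT replicate 1, a choice made after the data were examined, 4 regions passed.

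**Figure D4:**
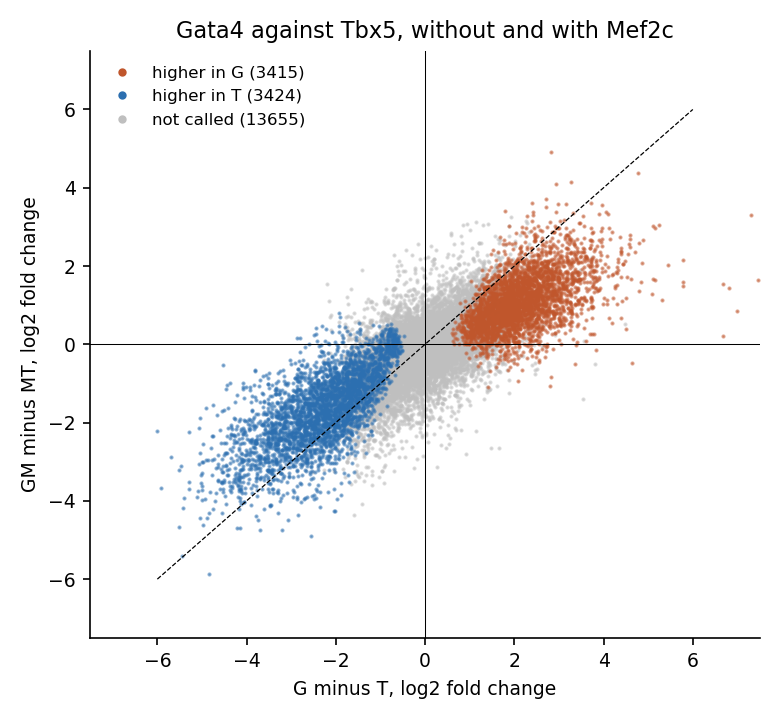
Log2 fold change of G over T (horizontal axis) against that of GM over MT (vertical axis) for each of the 20494 regions tested, with the dashed line at equal values. G-higher regions lie to the right and T-higher regions to the left by choice; 96.5% of the called regions have the same sign on the vertical axis, which contrasts other libraries fitted in the same model.

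The regions that differed most in both comparisons were ranked by the smaller of the 2 log2 fold changes. Only regions called the same way in both, with libraries fully apart in both and a mean level not under the median, were ranked. The first G-higher region was chr1:75452098-75452357, with 134, 36.4 and 160 CPM in G, against 8.79, 3.59 and 9.50 CPM in T. In the presence of Mef2c it had 46.7, 27.3 and 104 CPM in GM, against 3.18, 6.74 and 7.06 CPM in MT (log2 fold change 3.56 ± 0.66, adjusted p = 0.000346). That GM and MT did not overlap there was fixed by the choice, as it was for G and T. The second, chr2:69654566-69654966, had 74.3, 26.0 and 80.5 CPM in G, against 5.86, 1.79 and 11.4 CPM in T. With Mef2c it had 101, 27.3 and 90.0 CPM in GM, against 2.54, 8.42 and 2.35 CPM in MT (log2 fold change 4.15 ± 0.70, adjusted p = 0.000126). The third was chr5:107876951-107877176, the region with the largest difference between G and T, where GM had 67.1, 57.1 and 109 CPM, against 9.53, 8.42 and 9.42 CPM in MT (log2 fold change 3.06 ± 0.51, adjusted p = 0.000114).

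Among T-higher regions the first was chr2:18752751-18752960, with 5.44, 7.79 and 3.53 CPM in G, against 158, 167 and 122 CPM in T. With Mef2c it had 1.97, 0 and 3.16 CPM in GM, against 116, 130 and 127 CPM in MT (log2 fold change -5.88 ± 0.74, adjusted p = 5.67e-06). T and MT libraries stood at similar levels, and G and GM libraries were near 0. The second was chr17:73371686-73372265, where GM had 11.2, 17.4 and 22.1 CPM, against 367, 355 and 325 CPM in MT (log2 fold change -4.45 ± 0.56, adjusted p = 5.67e-06). The third was chr11:112791536-112792047, with 9.06, 13.0 and 4.24 CPM in G, against 299, 208 and 186 CPM in T, and with 5.26, 12.4 and 6.32 CPM in GM, against 141, 165 and 162 CPM in MT (log2 fold change -4.44 ± 0.54). All 16 regions ranked by size in G over T were called in the same direction in GM over MT. GM and MT levels had entered their choice through the mean over all 24 libraries, so this agreement is not independent of it. Among all called regions the shares were 26.1% of G-higher and 56.2% of T-higher regions.

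Cells with both factors were compared with M, which had the inhibitors and neither factor. G and T libraries are not in this contrast, but they chose the region sets and share the fitted spread. Over all regions tested, GT was higher than M in 19% and lower in 14.3%. Of G-higher regions, 1312 (38.4%) were higher in GT than in M, and of T-higher regions 1118 (32.7%), with median log2 fold changes of 1.09 and 0.89, against 0.0755 over all regions. Without the library labelled GT replicate 1, 787 G-higher regions (23%) and 1497 T-higher regions (43.7%) were higher, against 18.6% of all, and the medians were 0.60 and 1.20. The order of the sets thus turned on that library. Against the control, GT was higher in 13.1% and lower in 5.81% of all regions, in 22.2% of G-higher and in 25.9% of T-higher regions. Without that library the shares higher were 13.9% of all, 12.6% of G-higher and 37.2% of T-higher regions.

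GT was also read in the regions called in GM over MT, a contrast without G, T or GT libraries, although these share its filter and fitted spread. Without the library labelled GT replicate 1, GM over MT called 1364 regions higher and 2754 lower. In the 1118 regions higher in GM, the median level was 27.9 CPM in GT, 41.7 CPM in G and 7.78 CPM in T. Leaving out the library labelled GT replicate 1 gave 19.9 CPM for GT, and that library alone had 43.0 CPM. In the 2452 regions higher in MT, the median was 20.1 CPM in GT, 8.39 CPM in G and 46.5 CPM in T. The other GT libraries gave 25.3 CPM there and the library labelled GT replicate 1 had 8.85 CPM. GT therefore lay between G and T in both sets with and without that library, which on its own lay beside G.

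Single regions showed the same split among GT libraries. At chr17:73371686-73372265, GT had 12.6 CPM in replicate 1 and 309 and 195 CPM in replicates 2 and 3. At chr16:5431236-5431452 it had 2.53 CPM in replicate 1 and 146 and 59.7 CPM in the others. In all 8 top-ranked T-higher regions replicate 1 was the lowest GT library, and in 7 of the 8 top-ranked G-higher regions it was the highest. At chr3:105721047-105721252, GT had 148 CPM in replicate 1 and 24.2 and 25.3 CPM in the others, which lay near the control.

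With all 3 factors, GMT was higher than M in 18.7% and lower in 7.34% of all regions tested. Of G-higher regions 476 (13.9%) were higher in GMT than in M, with a median log2 fold change of 0.31. Of T-higher regions 1688 (49.3%) were higher, with a median of 1.41, against 0.0212 over all regions. The share of G-higher regions called higher was below that of all regions tested, and that of T-higher regions above it. GMT was called lower than M in 2.3% of G-higher and 1.6% of T-higher regions, below the 7.34% of all regions. The median of G-higher regions was above that of all regions. GMT replicate 1 had the lowest total of all libraries, 241394 counts, with 14.7% of regions at 0, and no fit was made without it. At chr5:107876951-107877176, GMT had 20.1, 23.2 and 19.8 CPM, against 8.36, 3.10 and 8.87 CPM in M. At chr17:73371686-73372265, GMT had 241, 342 and 274 CPM, against 8.36, 16.6 and 11.1 CPM in M.

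Region width was not used in the choice. The median width was 260 bp in G-higher, 298 bp in T-higher and 261 bp in all regions tested. Over all levels, the share of tested regions called higher in G lay between 15.1% and 17.2% in the 5 width bins, with 16% at 201 bp and 15.1% above 500 bp. The share higher in T was 9.95% at 201 bp, 12.9% at 202 to 250 bp, 17.7% at 251 to 350 bp, 22.1% at 351 to 500 bp and 27.3% above 500 bp. Wider regions also had higher levels, with a median of the mean log2 CPM of 3.76 at 201 bp and 5.45 above 500 bp. Regions were then split by mean level into 4 equal sets. In the lowest set, 14.2% of those over 350 bp and 13.9% of those of 250 bp or less were T-higher. In the next sets by rising level the shares were 27.9% and 14.9%, 30.8% and 10.3%, and 18.7% and 8.54%, so T-higher calls were more frequent among wide regions in these 3 sets. The G-higher shares of regions over 350 bp and of 250 bp or less were 11.4% and 18.7% in the lowest set, 19.1% and 18.2% in the next, 20.0% and 19.1% in the third, and 12.5% and 8.54% in the highest, with no single direction. Over all 30815 regions, those of 500 bp or wider took 11.4%, 11.0% and 11.8% of the counts in G, against 13.8%, 13.7% and 12.5% in T. The groups did not overlap (difference -1.96 percentage points), with p = 0.1 in a two-sided exact permutation test, the smallest that 3 against 3 libraries can give.

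**Figure D5:**
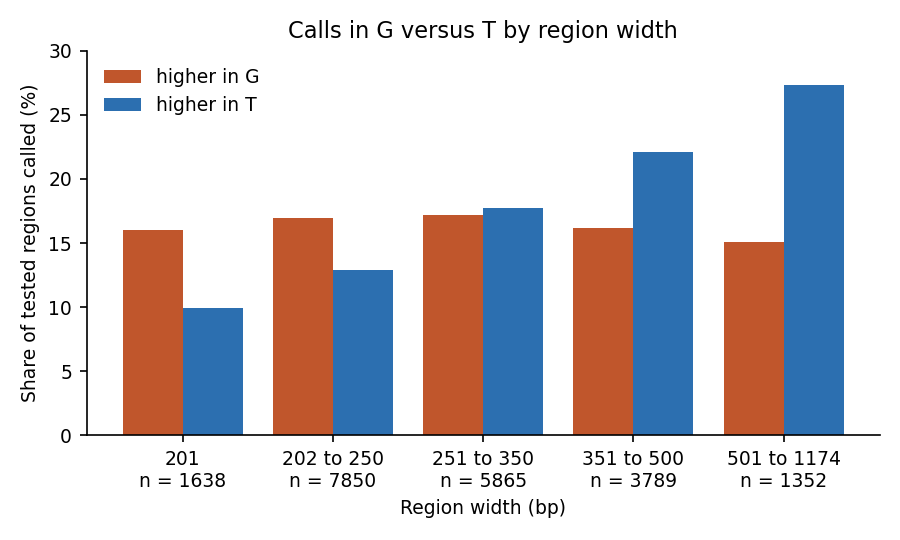
Share of tested regions called in G versus T (vertical axis, %) by region width in bp (horizontal axis), with the number tested under each bin; left bars are regions higher in G and right bars regions higher in T. The share higher in T is 9.95% at 201 bp and 27.3% above 500 bp, and that higher in G stays between 15.1% and 17.2%.

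Called regions close to each other mostly differed in the same direction. Of 525 neighbouring pairs at most 5000 bp apart with both regions called, 448 (85.3%) had the same direction, against 63.5% from 5001 to 20000 bp, 54.7% from 20001 to 50000 bp, 57% from 50001 to 200000 bp and 51.4% from 200001 to 1000000 bp. Runs of at least 3 neighbouring tested regions, at most 50000 bp apart and all called the same way, numbered 56 for G-higher and 104 for T-higher regions. With a distance of at most 20000 bp they numbered 23 and 72. Nearly adjoining regions, such as chr7:119460615-119461042 and chr7:119461054-119461383, were counted as separate neighbours. The number of runs expected from the shares of calls was not computed.

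The longest runs held 6 regions, and 2 are described for each direction. On the G side these were chr18:36520453-36565563 and chr7:119420363-119476346. Over the first, the summed level was 509, 203 and 523 CPM in G, against 141, 59.2 and 108 CPM in T, and 4 of its regions were also higher in GM than in MT. Over the second it was 375, 239 and 493 CPM in G, against 109, 91.5 and 103 CPM in T, and the control had 207, 251 and 289 CPM. The control thus lay above T and overlapped G in the second run. In the first it had 143, 134 and 132 CPM, close to T replicate 1.

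On the T side the longest runs were chr11:113338069-113401162 and chr8:123059542-123067643. Over the first, the summed level was 76.1, 117 and 57.9 CPM in G, against 536, 475 and 330 CPM in T, and 4 of its regions were also lower in GM than in MT. The control had 114, 99.0 and 71.9 CPM, in the range of G. Over the second, of 8102 bp, it was 814, 587 and 849 CPM in G, against 1275, 1977 and 1090 CPM in T. The log2 fold changes there were small, from -1.49 to -0.75, and 1 of the regions was called in GM over MT. Its calls depended on the libraries and the settings. Of the 6 regions, 4 lost theirs without T replicate 2, 3 without G replicate 2, 4 without the filter and 5 with a minimum fold of 1.5. Only 1 of the 6 kept its call under every alternative that tested it. In the runs on chromosomes 18, 7 and 11, this held for 5, 4 and 4 of the 6 regions. The calls ran evenly over the chromosomes, with G-higher shares of 13.9% on X to 19.4% on 14, and T-higher shares of 13.9% on X to 18.9% on 5.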

How the data were processed

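Libraries were made from 50000 unsorted cells with 12 PCR cycles and paired reads of 100 bases, per the labels' protocols. The submitters' processing notes name Bowtie2, Picard, featureCounts and build mm9, without versions. The deposited values are raw counts for each of 30815 regions of 201 to 1484 bp in 24 libraries, with no normalisation by the authors. How regions were defined, and whether the unit counted is a read or a fragment, is not given in the sources used here. The 3 dsRed samples with inhibitors are not analysed here. The software was edgeR 4.0.16, with DESeq2 1.42.0 and limma 3.58.1 for alternatives, under R 4.3.3. The filter filterByExpr (minimum count 10, minimum total 15) left 20494 regions (66.5%). The 8 groups were fitted together with TMM scaling and the quasi-likelihood test, with Benjamini-Hochberg adjustment over all regions within a comparison. Standard errors (SE) were taken as the absolute log2 fold change divided by the square root of the test's F, and 95% intervals use the test's degrees of freedom. Levels are CPM, and mean log2 CPM used a prior count of 2.

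The members, the comparisons and the lists were chosen with earlier results of these data known. Named regions follow fixed ranks: 8 by size in each direction (mean log2 CPM not under the median, libraries fully apart), 3 by p, 3 by the smaller difference of both exchanges, 2 by level, 2 not called, the 2 longest runs and any called interaction. Alternatives were RLE, total counts, loess offsets (span 0.3), DESeq2, no filter, a minimum count of 30, only the compared groups, glmTreat with a fold of 1.5, a replicate block and fits without single libraries. In simulated counts at the depths of these libraries, G versus T called 29 of 50 regions raised 4-fold and 27 of 50 lowered 4-fold. At 2-fold it called 5 and 2 of 50. There were 5 false calls over 19455 regions. All other regions were set equal between G and T there, whereas 33.4% were called in the data. The adjusted threshold was therefore stricter in the simulation, and these counts do not give the detection rate in the data.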

Additional observations from a re-analysis of the deposited data

How the results depend on the processing

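The number of regions called in G versus T was 6839. It lay between 4665 and 7192 under the other scalings, tests, groups and folds tried or without the library labelled GT replicate 1. When a G or T library was left out, it lay between 4817 and 7198. No call was in the opposite direction. The 4665 came from the G and T libraries alone, where 12435 regions were tested and 4567 of the 6839 calls were shared. The 7192 came from the fit without the library labelled GT replicate 1. A minimum count of 30, which tested 9474 regions, called 3386 in G versus T and 1811 in GM versus MT. GM versus MT called 3570, against 2233 with a minimum fold of 1.5 and 1886 to 3511 when a GM or MT library was left out (2169 without GM replicate 1, 1995 without GM replicate 3, 1886 without MT replicate 1 and 2326 without MT replicate 2). Total counts alone shifted the median log2 fold change of G over T to 0.129, with 3799 regions higher in G and 2995 lower. Without the filter, 3881 were higher and 3193 lower, so the even split depended on scaling and filter. At an adjusted p under 0.01 in both comparisons, G-higher regions higher in GM numbered 287 of 2106, against 893 of 3415. T-higher regions lower in GM numbered 1073 of 2350, against 1923 of 3424. G-higher and T-higher regions higher in GT than in M numbered 607 of 2106 and 548 of 2350. Shares over all regions tested were not counted at that threshold. Fitted anew without the library labelled GT replicate 1, G-higher regions higher in GT than in M numbered 811 of 3613, against 1312 of 3415. G-higher runs numbered 23 at 20000 bp. No sign changed among the named regions that were called, and sign changes were not counted for those not called. Of 945 values over all named regions, 76 fell short of the threshold that the main fit had passed, in 13 regions. The cause of these shifts was not tested. With the replicate number as a block, 6705 regions were called in G versus T and 3508 in GM versus MT. Deviations of same-numbered G and T libraries correlated at 0.133, -0.0977 and -0.0495, and those of GM and MT at 0.482, -0.0516 and 0.0357. Between differently numbered libraries the correlations ran from -0.196 to 0.166 for G with T, and from -0.387 to 0.298 for GM with MT. As not every same-numbered pair was over 0.1 in either comparison, the numbers were not taken to pair the samples. T libraries had 0 counts in 4.46% to 15.4% of all regions, against 2.14% to 5.63% in G, and this share did not follow the totals: T replicate 1 and G replicate 2 had 382527 and 386147 counts, with 15.4% and 5.63% of regions at 0.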
